A study of Mus musculus with 4 samples.

Results

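The CCT chaperonin, also called TRiC, is built from 8 related subunits, and the genes of all 8 were taken by symbol from the gene counts: *Tcp1* (which encodes subunit CCT1), *Cct2*, *Cct3*, *Cct4*, *Cct5*, *Cct6a*, *Cct7* and *Cct8*. These are 8 of the 56748 gene IDs in the count tables, all 8 had reads in every library, and all 8 were among the 8670 genes with enough reads to be tested. The libraries were direct RNA nanopore libraries of C2C12, an established mouse myoblast line labelled as wild type. One group of 2 libraries carried a scrambled shRNA and the other group of 2 carried a cocktail of shRNAs against *Hnrnpl*, and both lines were kept in growth medium, expressed eGFP from the shRNA plasmid and were selected with puromycin. Clones with eGFP had been isolated, and each pair of libraries came from passages of 1 selected line per group, and each of 2 labelled batches held 1 scrambled and 1 knockdown library. A difference between the lines and an effect of the shRNA cannot be told apart in this design, and p-values measure the spread between passages.

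The subunits form a pair of stacked rings, each with 1 copy of every subunit, around a cavity in which newly made proteins fold at the cost of ATP. Actin and tubulin are its best known substrates, and they reach it from ribosomes through the cochaperone prefoldin or from HSP70. Muscle precursor cells hold much actin and tubulin, and the complex is needed in all dividing cells. The question asked of the counts was whether genes for parts of the same complex, each on a chromosome of its own, moved together between scrambled and knockdown myoblasts.

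The 4 libraries held 1229424 to 1676911 reads assigned to genes, and a count of 0 allows up to 1.79 to 2.44 CPM, the count scaled to library size (3 counts), for counting error only. The targeted gene *Hnrnpl* had 358 and 656 reads in scrambled 1 and 2, against 242 and 258 in knockdown 1 and 2, a log2 fold change of -0.78 (SE 0.18, adjusted p = 0.0112 by the edgeR quasi-likelihood test). Of the myoblast markers, *Vim*, *Des*, *Myf5* and *Cdh15* had reads in every library, *Pax7* had none, and *Myod1* had 1 read in all. The list as a whole held 15008 and 15803 CPM in scrambled and 13447 and 14490 CPM in knockdown. Cadherin 15 (*Cdh15*), an adhesion protein of myoblasts, had 113 and 152 reads in scrambled, against 25 and 14 in knockdown. *Des*, a muscle intermediate filament gene, had a log2 fold change of -0.56 (SE 0.15, adjusted p = 0.0308 in edgeR, and 0.0526 with the batch as a block). Of 10 markers of differentiated myotubes, 6 had no reads, *Myog* and *Myh3* among them, and the list reached 9.46 to 18.0 CPM per library. *Acta1*, skeletal muscle actin, had the most reads of these markers, 16 and 9 in scrambled, against 7 and 9 in knockdown. The part of these marker differences in the values below was not tested. In bulk RNA, fewer cells of a kind and less RNA per cell cannot be told apart.

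The 8 genes lie on 8 chromosomes (GRCm39, GENCODE vM39). *Tcp1* (ENSMUSG00000068039.14) is on chromosome 17 from 13134588 to 13163066, *Cct2* (ENSMUSG00000034024.9) on chromosome 10 from 116886897 to 116899744 and *Cct3* (ENSMUSG00000001416.14) on chromosome 3 from 88204289 to 88230423. *Cct4* (ENSMUSG00000007739.11) is on chromosome 11 from 22940379 to 22956236, *Cct5* (ENSMUSG00000022234.16) on chromosome 15 from 31588834 to 31601959 and *Cct6a* (ENSMUSG00000029447.14) on chromosome 5 from 129864049 to 129875406. *Cct7* (ENSMUSG00000030007.9) is on chromosome 6 from 85428439 to 85445708 and *Cct8* (ENSMUSG00000025613.14) on chromosome 16 from 87279168 to 87292801. The annotated main transcripts are 1967 bases (*Cct2*) to 4735 bases (*Cct4*) long, and their coding parts 1593 bases (*Cct6a*) to 1668 bases (*Tcp1*), so the subunits differ little in protein length and the transcripts differ mostly outside the coding part.

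The start regions are shown to set what the genes share in sequence beside how they moved. RefSeq start regions (GRCm38.p6) were matched for 7 of the 8 subunits, with 9 start sites, and *Cct4* had no entry. In these regions, 250 bases before and 50 after the start, the letters CCAAT, on either strand, were found in 4 subunits (*Tcp1*, *Cct3*, *Cct6a* and *Cct7*), against 37.4% of all 32851 start regions. The heat shock element letters GAANNTTC were found at 1 of the 9 start sites, the second of *Cct2*, against 7.86% of all regions. The 4 subunits with CCAAT include 2 that lay lower and 2 that lay higher in knockdown. Neither set of letters was found in the regions of *Cct5* and *Cct8*, the subunits with the lowest and the highest fold change. The 150 bases before the start of these 6 genes are printed 5′ to 3′ on the strand of the gene, with matches to CCAAT or its reverse complement in capitals.

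The windows lie, on GRCm38.p6, at chr17:12916179-12916328 (forward strand, *Tcp1*), chr3:88296985-88297134 (forward strand, *Cct3*), chr5:129787206-129787355 (forward strand, *Cct6a*), chr6:85451355-85451504 (forward strand, *Cct7*), chr15:31601847-31601996 (reverse strand, *Cct5*) and chr16:87495870-87496019 (reverse strand, *Cct8*).
Tcp1: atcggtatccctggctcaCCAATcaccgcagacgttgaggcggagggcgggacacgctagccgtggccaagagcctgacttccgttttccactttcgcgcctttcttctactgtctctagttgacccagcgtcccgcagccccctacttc
Cct3: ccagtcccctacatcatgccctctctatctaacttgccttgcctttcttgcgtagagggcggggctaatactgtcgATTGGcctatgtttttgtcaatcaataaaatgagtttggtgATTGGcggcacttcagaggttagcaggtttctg
Cct6a: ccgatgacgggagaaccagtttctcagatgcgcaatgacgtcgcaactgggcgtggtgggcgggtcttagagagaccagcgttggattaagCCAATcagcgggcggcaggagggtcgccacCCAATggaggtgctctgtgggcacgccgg
Cct7: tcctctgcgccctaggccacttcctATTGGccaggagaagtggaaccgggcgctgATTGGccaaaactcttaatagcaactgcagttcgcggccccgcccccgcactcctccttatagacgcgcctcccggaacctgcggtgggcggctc
Cct5: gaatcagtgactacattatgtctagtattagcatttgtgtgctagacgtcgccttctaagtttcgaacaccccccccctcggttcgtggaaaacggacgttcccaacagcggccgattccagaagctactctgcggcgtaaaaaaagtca
Cct8: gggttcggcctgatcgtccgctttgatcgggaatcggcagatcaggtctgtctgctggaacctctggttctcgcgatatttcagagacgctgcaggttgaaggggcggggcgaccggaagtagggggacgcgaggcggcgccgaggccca

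HnRNP L binds CA repeats in RNA, so the annotated main transcripts were searched on the sense strand for such letters. The 8-base run ACACACAC was found in 0 of the 8 transcripts, and in 15.2% of the 16620 main transcripts of genes with reads. The shorter run ACACAC, added after this result was seen, was found in 4 of the 8 and in 51.8% of the 16620. The sites are shown with up to 12 bases on each side, the match in capitals: in *Tcp1* at base 2105 of the transcript in the 3′ UTR, in *Cct3* at base 1663 in the coding part, in *Cct6a* at base 86 in the 5′ UTR and at base 1586 in the coding part, and in *Cct8* at bases 2126 and 2948 in the 3′ UTR. A match is a description of these letters and not a binding site.
Tcp1 at 2105: caccctctctgaACACACattgcgactccc
Cct3 at 1663: ttcgggccaagcACACACaggagagttgtg
Cct6a at 86: gaagcatccctcACACACgacctgcagggc
Cct6a at 1586: gaccaaataagcACACACtgactcaaatca
Cct8 at 2126: gagtttatgcgcACACACtgacaccaagat
Cct8 at 2948: actgtcccatttACACACatgtccttggaa

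*Cct5*, which encodes the epsilon subunit, had the most reads of the family, 1810 and 1961 in scrambled 1 and 2, against 1440 and 1276 in knockdown 1 and 2. After scaling to the mean library size by TMM, which gives the normalised counts used below, these were 1895 and 1650 in scrambled, against 1435 and 1491 in knockdown. Both knockdown libraries lay under both scrambled libraries. *Cct5* had the fold change farthest from 0, a log2 fold change of -0.28 (SE 0.14, 95% interval -0.57 to 0.012), which is a fold of 0.826, and it did not pass the test (adjusted p = 0.252 from edgeR). *Cct4*, the delta subunit, was at 1387 and 1253 normalised counts in scrambled, against 1127 and 1189 in knockdown, again with no overlap of the groups. Its log2 fold change was -0.19 (SE 0.14, adjusted p = 0.446 from edgeR).

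*Cct8*, the theta subunit, was at 873 and 836 normalised counts in scrambled, against 972 and 993 in knockdown. Both knockdown libraries lay above both scrambled libraries. The log2 fold change of 0.20 (SE 0.13, 95% interval -0.076 to 0.48) was the highest of the family (adjusted p = 0.401 from edgeR). *Cct7*, the eta subunit, was at 990 and 917 in scrambled, against 1066 and 1072 in knockdown. *Cct6a*, the zeta subunit of most tissues, was at 830 and 718 in scrambled, against 869 and 866 in knockdown. For these 2 genes the groups did not overlap either, and both had a log2 fold change of 0.16 (adjusted p = 0.511 for *Cct7* and 0.523 for *Cct6a* from edgeR). Without scrambled 2 these were 0.10 for *Cct7* and 0.055 for *Cct6a*.

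The other 3 subunits had overlapping groups. *Cct2*, the beta subunit, was at 1031 and 893 normalised counts in scrambled, against 1015 and 1068 in knockdown, for a log2 fold change of 0.11 (SE 0.14), which was 0.0064 without scrambled 2. *Cct3*, the gamma subunit, was at 1110 and 898 in scrambled, against 873 and 1074 in knockdown. Here the libraries of a group differed by more than the group means did, and the log2 fold change was -0.045 (SE 0.15). Its sign turned without scrambled 1 (0.11) and without knockdown 1 (0.099). *Tcp1*, the alpha subunit that gave the complex its first name, had 43 and 35 reads in scrambled, against 36 and 27 in knockdown. Its normalised counts were 45.0 and 29.4, against 35.9 and 31.6, and its log2 fold change of -0.12 had the widest 95% interval, from -0.72 to 0.49, and was 0.20 without scrambled 1.

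**Figure D1:**
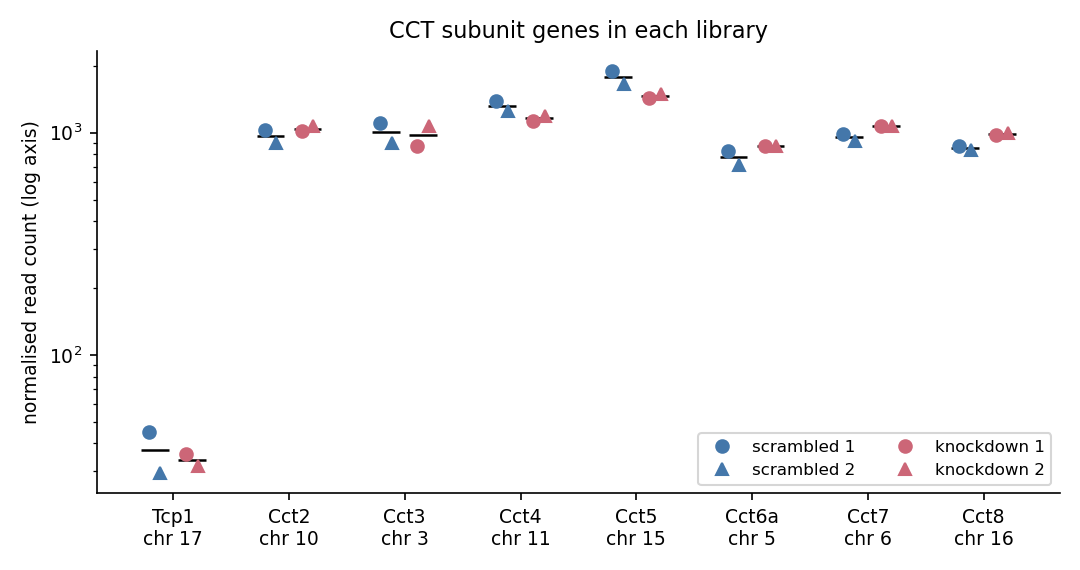
Normalised read counts of the 8 CCT subunit genes on a log axis, with 1 point per library, circles for libraries numbered 1, triangles for those numbered 2 and black lines for the mean of each group of 2. *Cct4* and *Cct5* lie lower and *Cct6a*, *Cct7* and *Cct8* higher in knockdown without overlap, and *Tcp1* lies far under the other 7 genes.

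By the quasi-likelihood test of edgeR, 0 of the 8 subunits had an adjusted p under 0.05, where 5.95% of the 8670 genes tested did. At an unadjusted p under 0.05, the count was again 0 of 8, where 21.8% of all genes tested passed. The 4 DESeq2 configurations of the study also gave 0 subunits at an adjusted p under 0.05, and *Cct5* alone was under an unadjusted p of 0.05 in the 2 configurations with the local fit. The same held in edgeR without a filter on low counts and with at least 10 counts in every library. The upper and lower ends of the 95% intervals of the 7 well-counted subunits lay between folds of 0.676 and 1.39, so larger changes lie outside the interval of each. An interval that includes no change does not show that a subunit was unchanged. The groups did not overlap for 5 of 8 subunits, and for 52.4% of all genes tested. Of the 8 log2 fold changes, 4 were above 0 and 4 under it, with a median of 0.035, beside 49.9% above 0 and a median of -0.00059 over all genes tested. The sign of the median of the subunits rested on scrambled 2, without which it was -0.096, and without *Tcp1* it was 0.11.

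Summed over the family, the 8 genes took 0.562% and 0.510% of the counted reads in scrambled 1 and 2, against 0.540% and 0.542% in knockdown 1 and 2. The 2 scrambled libraries were thus the highest and the lowest of the 4. As TMM-scaled CPM the sum was 5478 ± 487 (SD, n = 2) in scrambled, against 5413 ± 198 (SD, n = 2) in knockdown, a log2 ratio of -0.017, and an exact two-sided permutation test gave p = 1, where 2 libraries against 2 cannot give less than 0.333. The group means of the sum differed by less than the spread between libraries.

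The make-up of this sum was then compared. *Cct5* made up 23.2% (95% Clopper-Pearson interval 22.3% to 24.2%) and 22.9% (22.0% to 23.8%) of the CCT reads in scrambled 1 and 2. In knockdown 1 and 2 its share was 19.4% (18.5% to 20.3%) and 19.2% (18.2% to 20.1%). The gap between the group means, -3.79 percentage points, was larger than the largest gap between libraries of a group, 0.292 points, and the intervals of the groups do not meet. These intervals cover counting error only. The share of *Cct4* was 17.0% and 17.4% in scrambled, against 15.2% and 15.3% in knockdown.

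The shares of 4 subunits were larger in knockdown. *Cct8* had 10.7% and 11.6% of the CCT reads in scrambled, against 13.2% and 12.8% in knockdown. *Cct7* had 12.1% and 12.7% in scrambled, against 14.4% and 13.8% in knockdown. The mean share of *Cct6a* was 10.1% in scrambled and 11.4% in knockdown, and that of *Cct2* was 12.5% and 13.7%, each without overlap of the libraries. The share of *Cct3* ran from 11.8% to 13.8% within the knockdown group alone, so it overlapped, and that of *Tcp1* stayed between 0.405% and 0.552%. In all, the shares of 6 of 8 subunits did not overlap between the groups, where the same ratio to the summed CCT reads did not overlap for 49.3% of all genes tested. With 2 libraries a group, an exact permutation test of a single share cannot fall under 0.333.

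**Figure D2:**
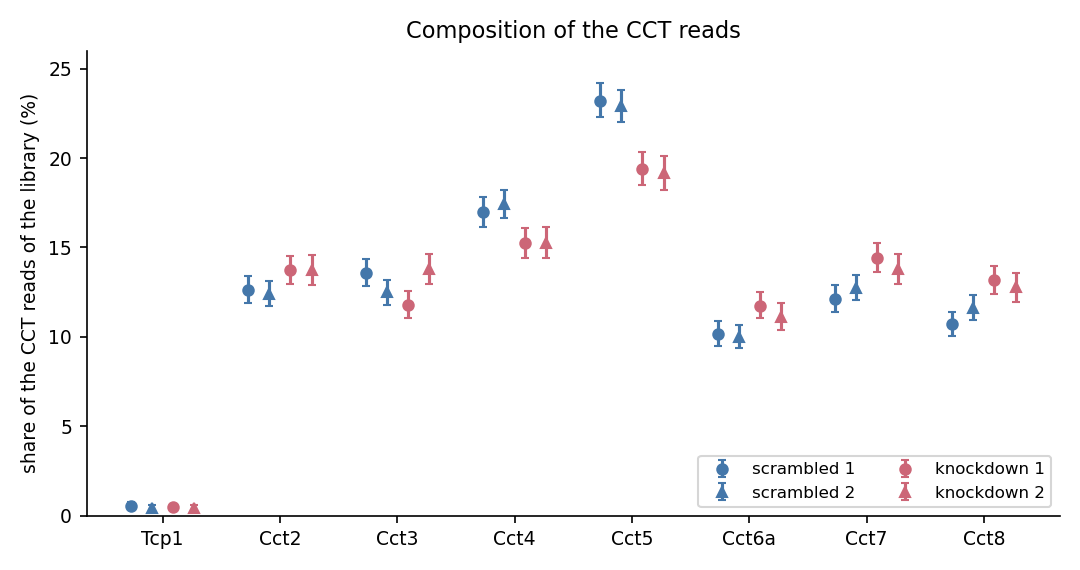
Share of each subunit in the CCT reads of its library, in percent from 0, with exact 95% binomial intervals that cover counting error only. The shares of *Cct5* and *Cct4* are lower in both knockdown libraries and those of *Cct2*, *Cct6a*, *Cct7* and *Cct8* higher, with the libraries of a group close together except for *Cct3*.

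Levels of different subunits were compared per kilobase of the annotated main transcript, as TMM-scaled CPM per kilobase. In scrambled, *Cct2* stood highest at 349 ± 35.4 (SD, n = 2), followed by *Cct3* at 339 ± 50.5, *Cct5* at 318 ± 31.1, *Cct7* at 272 ± 14.8, *Cct4* at 199 ± 14.3, *Cct6a* at 199 ± 20.3 and *Cct8* at 175 ± 5.36. The libraries of the neighbours *Cct2*, *Cct3* and *Cct5* overlapped, and so did those of *Cct4* and *Cct6a*. In knockdown the order was *Cct2* at 378 ± 13.6, *Cct3* at 329 ± 48.1, *Cct7* at 305 ± 1.15, *Cct5* at 263 ± 7.19, *Cct6a* at 222 ± 0.497, *Cct8* at 201 ± 3.05 and *Cct4* at 174 ± 6.58. On this scale *Cct7* stood above *Cct5* in knockdown, *Cct4* was the lowest of the 7, and the libraries of *Cct3* lay on either side of those of *Cct7*. The highest and the lowest of these 7 levels were within a ratio of 1.99 in scrambled. The order of genes depended on the length used: per kilobase of all annotated exons *Cct5* stood highest in scrambled and *Cct2* in knockdown, *Cct3* was the lowest of the 7 in both, and in knockdown *Cct7* lay under *Cct5* and *Cct4* was not the lowest. A direct RNA read is read from the 3′ end of an RNA molecule and seldom covers all of it, so a level per kilobase is only a scale for comparison.

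*Tcp1* was the exception, at 10.5 ± 3.10 per kilobase in scrambled and 9.48 ± 0.857 in knockdown. Of its annotated main transcript, 41.3% of the bases lie on exons of other genes, most of them on the opposite strand (*Mrpl18*, *Acat2* and *Acat3*), and 45.2% of its last 500 bases do. For the other 7 subunits, 0 of the last 500 bases were shared with another gene, while the share over the whole transcript was 0% to 26.8%. Reads that overlapped more than 1 gene, 16.0% to 16.5% of all reads in each library, were set aside in the counting, and the strand setting is not given in the sources used here. The part of this overlap in the low count of *Tcp1* was not tested. Mapped back to the genome, all 8 main transcripts matched their own gene with the highest mapping quality, 60. Near copies elsewhere were found for *Cct3* alone, in *Cct3-ps1* on chromosome 4 (91.4% identical) and in *Gm11516* on chromosome 11 (89.8%). Neither copy had a counted read in any library. Reads of low mapping quality, 22.7% to 23.8% of all reads in each library, were also set aside in the counting, and the genes they came from are not known.

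The fold changes were then set beside those of the chromosomes. The median log2 fold change of the other tested genes of a chromosome lay between -0.37 and 0.30 over the genome. For the subunits it was -0.11 on chromosome 11 (*Cct4*), -0.10 on chromosome 15 (*Cct5*), 0.097 on chromosome 3 (*Cct3*), 0.19 on chromosome 17 (*Tcp1*), 0.23 on chromosome 5 (*Cct6a*), 0.24 on chromosome 10 (*Cct2*), 0.28 on chromosome 6 (*Cct7*) and 0.30 on chromosome 16 (*Cct8*). The 2 subunits on chromosomes with a median under 0 had the lowest fold changes, and the subunit on the chromosome with the highest median had the highest. Across the 8 subunits, Pearson's r between the fold change of a subunit and the median of its chromosome was 0.908, and it was 0.983 over the 7 without *Tcp1*. These are descriptions over genes that share the same 4 libraries, and the fold changes and medians come from the same fit.

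Relative to their chromosomes the 7 well-counted subunits lay closer together than their fold changes did. The difference between the log2 fold change of a subunit and the median of its chromosome was -0.17 for *Cct5*, -0.14 for *Cct3*, -0.13 for *Cct2*, -0.11 for *Cct7*, -0.099 for *Cct8*, -0.080 for *Cct4* and -0.067 for *Cct6a*. The SD of these 7 values was 0.037, against 0.19 for the 7 fold changes themselves, and it was smaller than the SE of any of the fold changes. With *Tcp1* included, the SD was 0.077 against 0.18. For the 424 genes with a mean of at least 500 normalised counts, the same step moved the SD from 0.323 to 0.284. Without knockdown 2, the distance from the lowest to the highest of the 7 subunits was 0.24, against 0.11 with all 4 libraries. *Tcp1*, with few reads, lay 0.31 under its chromosome.

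All 8 subunits lay under the median of their chromosome, as did 60.8% of the 424 genes with at least 500 normalised counts, a set that *Tcp1* is too low to enter. Between 17.4% (*Tcp1*) and 41.2% (*Cct6a*) of the genes of the chromosome had a lower fold change than the subunit. The median of the 50 nearest tested genes was also used in place of the whole chromosome, a comparison chosen after the data were seen. All 8 were lower than it, and the 7 without *Tcp1* lay between -0.15 and -0.049 of it. This comparison uses the same fold changes and part of the same chromosome genes, and its share over all genes was not computed. The count under the chromosome median rested on single libraries, being 5 of 8 without scrambled 1 and 7 of 8 without knockdown 1. When the chromosome medians were taken out in the fit, 0 of 8 subunits had an adjusted p under 0.05, and the lowest was 0.636 for *Cct5* from edgeR.

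**Figure D3:**
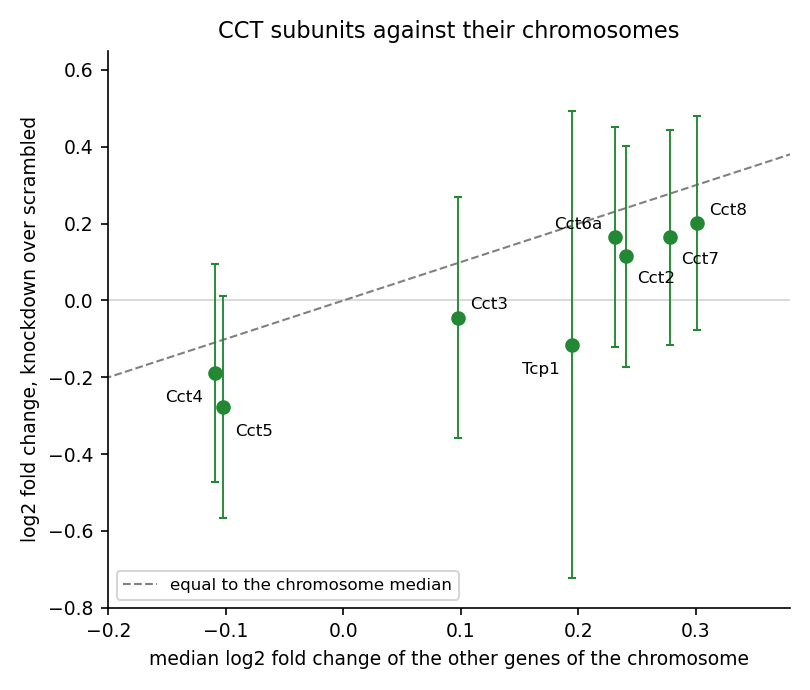
Log2 fold change of each subunit with its 95% interval from edgeR (vertical axis) against the median log2 fold change of the other tested genes of its chromosome (horizontal axis), with a dashed line where both are equal. All 8 subunits lie under the line, and the 7 well-counted ones run nearly parallel to it.

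Every subunit had a lower ratio in batch 1 than in batch 2, as did 49.6% of all genes tested and 75.5% of the 432 with a mean of at least 500 normalised counts, mitochondrial genes included. In batch 1, the log2 ratio of knockdown over scrambled ran from -0.40 (*Cct5*) to 0.16 (*Cct8*), and in batch 2 from -0.15 (*Cct5*) to 0.27 (*Cct6a*). The direction was the same in both batches for 5 subunits (*Cct4* and *Cct5* lower, *Cct6a*, *Cct7* and *Cct8* higher) and changed for *Tcp1*, *Cct2* and *Cct3*. Over all genes tested 65% had the same direction in both batches, so the count of subunits is near the background. *Cct3* was the least stable of the well-counted subunits, at -0.35 in batch 1 and 0.26 in batch 2. Relative to the chromosome medians of the same batch, the 7 subunits without *Tcp1* lay between -0.40 and -0.15 in batch 1 and between -0.072 and 0.12 in batch 2. Their SD fell from 0.24 to 0.087 in batch 1 and from 0.18 to 0.068 in batch 2 when these medians were taken off. All 8 subunits were under the median of their chromosome in batch 1, where 67.9% of the 424 genes with at least 500 normalised counts were. In batch 2 it was 5 of 8 (*Tcp1*, *Cct2*, *Cct5*, *Cct7* and *Cct8*), where 42.2% of those genes were.

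**Figure D4:**
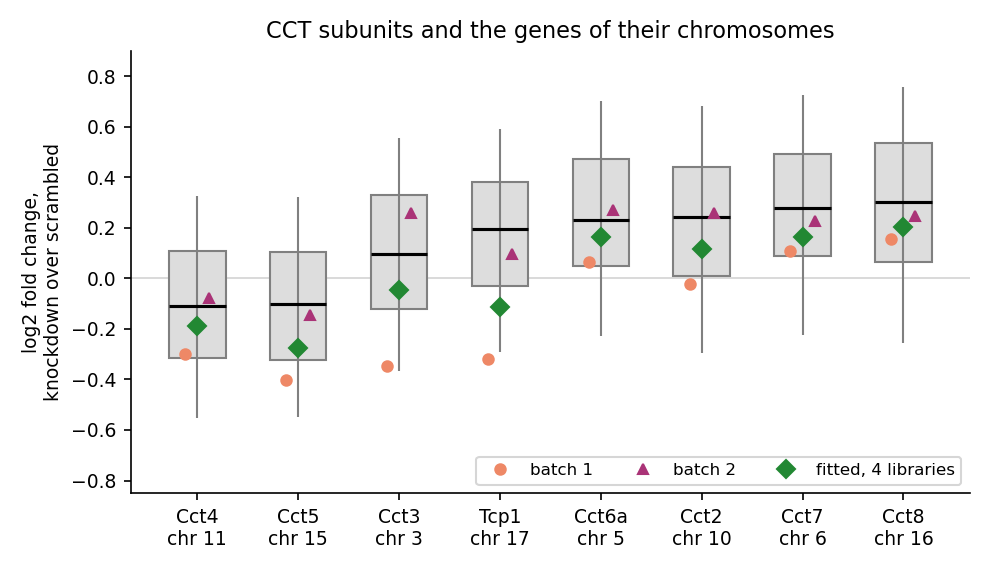
Log2 fold changes, knockdown over scrambled, for the genes of each subunit's chromosome (box for the interquartile range with the median, line from the 10th to the 90th percentile) and for the subunit itself (diamond, fitted on 4 libraries; circle and triangle, ratio within batch 1 and batch 2). Chromosomes are ordered by their median, every diamond lies under the median line, and the batch 1 values lie under those of batch 2.

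The genes nearest to the mean profile of the family were sought among 4494 others with a mean of at least 50 normalised counts. The mean profile of the subunits, as log2 CPM centred on each gene, was 0.11 in scrambled 1, -0.12 in scrambled 2, -0.020 in knockdown 1 and 0.025 in knockdown 2. The nearest to this mean were *Dcaf7*, *Myc*, *Kpna4*, *Ube2f* and *Cdk1*, with a root mean square difference of 0.013 to 0.018 on the log2 scale. Single subunits differ from the mean, with log2 fold changes from -0.28 (*Cct5*) to 0.20 (*Cct8*), so these genes are not like each subunit. Likeness over 4 libraries is a description, and nothing on shared control is read from it.

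Prefoldin hands unfolded actin and tubulin to the chaperonin. Of its 6 subunit genes, 5 were tested and 1 passed at an adjusted p under 0.05, where 5.95% of all genes tested did. Of the 5, 4 lay under 0, while 49.9% of all genes tested lay above 0. *Pfdn1*, with 380 and 427 reads in scrambled, against 237 and 250 in knockdown, fell by 0.52 on the log2 scale (SE 0.15, adjusted p = 0.0475 from edgeR), while the median of its chromosome was -0.28. With the batch as a block it did not pass (adjusted p = 0.0731 from edgeR). *Pfdn5*, the most abundant prefoldin gene, had a log2 fold change of -0.29 (adjusted p = 0.230 from edgeR) and lies on chromosome 15, as does *Cct5*. The median of the 5 genes was -0.29, and -0.19 relative to their chromosomes, where that of the CCT subunits was -0.12.

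Of the 4 phosducin-like cofactors that bind the chaperonin, 3 were tested. Of these, 0 passed at an adjusted p under 0.05, where 5.95% of all genes tested did. *Pdcl3*, the most abundant of them, had a log2 fold change of 0.24 (adjusted p = 0.330 from edgeR), and *Pdcl2* had no reads in any library, which allows up to 2.44 CPM in the shallowest. Among the cofactors that assemble tubulin dimers after folding, 0 of the 5 tested passed at an adjusted p under 0.05, beside the same 5.95%. *Tbcc* at 0.59 (adjusted p = 0.0693) and *Arl2* at -0.48 (adjusted p = 0.114) from edgeR were both under 0.05 unadjusted. Over all genes tested, 21.8% were under 0.05 unadjusted. *Tbcb* had the most reads of these cofactors over the 4 libraries, 200 and 223 in scrambled, against 141 and 158 in knockdown (log2 fold change -0.29, adjusted p = 0.330 from edgeR).

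Of 23 genes for proteins folded by the chaperonin, 21 were tested, and 5 fell and 0 rose at an adjusted p under 0.05. The share that fell among the 8670 genes was 3.44%. Of the 21 genes, 11 are tubulin genes, and the list was chosen with earlier results of these data known. All 5 were tubulin genes, and the other 6 of the 11 tubulin genes tested did not pass. These 6 were *Tubb5* (-0.27), *Tuba1c* (-0.24), *Tubg1* (-0.15), *Tuba1b* (-0.14), *Tubb4b* (0.078) and *Tuba4a* (1.03). *Tuba4a* had only 14 and 2 reads in scrambled, against 20 and 9 in knockdown. *Tubb3* had 150 and 149 reads in scrambled, against 20 and 18 in knockdown, for a log2 fold change of -2.77 (SE 0.23, adjusted p = 4.82e-07 from edgeR). *Tubb2b* (-1.65), *Tubb6* (-0.92), *Tuba1a* (-0.73) and *Tubb2a* (-0.68) were the others that passed, with adjusted p-values from 7.47e-05 to 0.0150 in edgeR. The most abundant substrate gene, *Actb*, which encodes beta actin, had 8090 and 10669 reads in scrambled, against 9757 and 7807 in knockdown. After scaling both knockdown libraries lay above both scrambled ones, and the log2 fold change was 0.11 (SE 0.15, adjusted p = 0.711 from edgeR). *Gnb4* (0.40) and *Wrap53* (0.58) passed at an unadjusted p only (adjusted p = 0.146 and 0.220 from edgeR). Over the 21 genes the median log2 fold change was -0.14.

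Of the chaperonin-like relatives, *Cct6b*, the zeta subunit of testis, had 3 reads in all, and *Cct8l1* had none. *Bbs12*, of the Bardet-Biedl chaperonin complex, had 14 and 13 reads in scrambled, against 25 and 24 in knockdown (log2 fold change 1.06, adjusted p = 0.0910 from edgeR), and *Mkks*, with the same role, stood at 0.65. The mitochondrial chaperonin genes *Hspd1* and *Hspe1*, which share a promoter region on chromosome 1, had log2 fold changes of 0.082 and -0.065 (SE 0.14 and 0.16), neither past the test. In the HSP70 and HSP90 relay, 0 of 12 tested genes passed at an adjusted p under 0.05, where 5.95% of all genes tested did. The most abundant of the 12 was *Hsp90ab1* (log2 fold change 0.17). At an unadjusted p under 0.05 there were *Cdc37* (-0.45, adjusted p = 0.0687 from edgeR, chromosome median -0.37) and *Hsph1* (0.33, adjusted p = 0.187 from edgeR, chromosome median 0.23). Over all genes tested, 21.8% had an unadjusted p under 0.05.

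**Figure D5:**
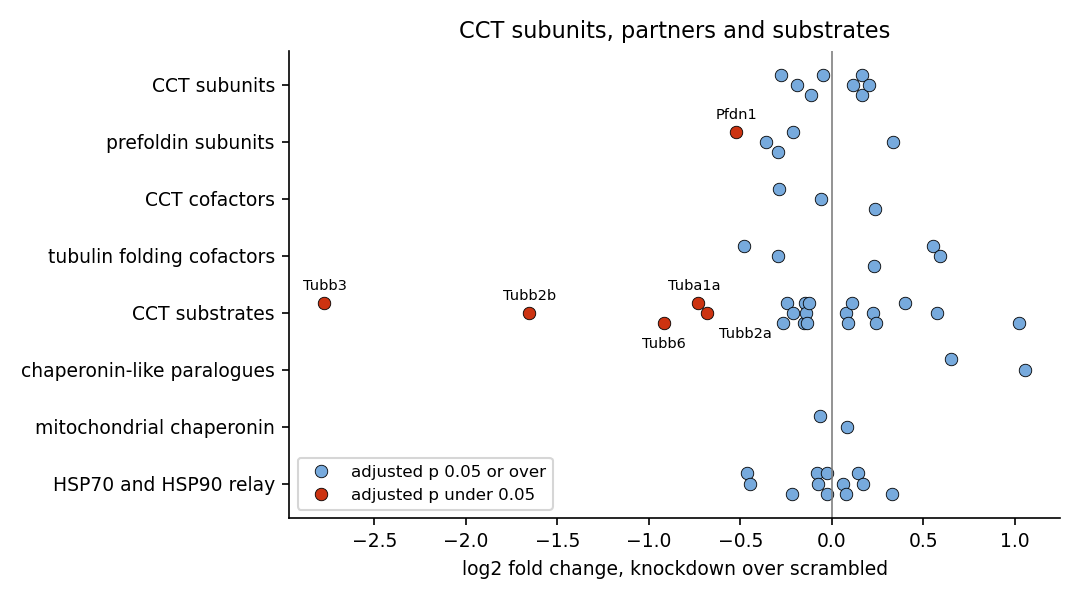
Log2 fold change, knockdown over scrambled, of each tested gene in the CCT family and in 7 lists of partners, substrates and related chaperonins, 1 point per gene, red where the adjusted p of edgeR was under 0.05. The CCT subunits lie between -0.28 and 0.20 with no red point, and the red points are *Pfdn1* and 5 tubulin genes, all under 0.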

How the data were processed

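The deposited files hold whole counts of direct RNA reads per gene, which the authors made by basecalling with guppy, mapping to GRCm39 with minimap2 2.17 and counting with HTSeq 0.9.1; no normalization was applied, and the annotation release is not given in the sources used here. Of all reads in a library, 56.5% to 57.8% were counted on a gene, and the rest stayed out of library sizes and tests.

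Of 56748 gene IDs, 56017 were found in GENCODE vM39, which gave symbols and positions. Groups were taken from the sample titles. The 2 groups were compared by edgeR 4.0.16 under R 4.3.3, using TMM factors, filterByExpr and the quasi-likelihood test, unblocked as in the study's design, with Benjamini-Hochberg adjustment over 8670 genes. The 4 DESeq2 1.42.0 configurations of the study and other settings were run as alternatives. The fits were tested on simulated data. Main transcripts are those tagged canonical, mapped with minimap2 2.31. Within-batch ratios used a prior count of 1.

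Replicate numbers pair libraries by the batch in the labels. As a check, how far library 1 lay from its group mean correlated at 0.0026 between the groups over 4501 genes.

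The genes named are the 8 subunits and the 5 genes nearest to the mean profile of the family. In each other list they are the most abundant gene and those with an unadjusted p under 0.05. Any other gene named was picked with its values in view. The members and lists were chosen with earlier results of these data known. Protein sequences were not used here. Transcript and exon counts were not analysed here.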

Additional observations from a re-analysis of the deposited data

How the results depend on the processing

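None of the 17 alternatives gave a subunit with an adjusted p under 0.05; the lowest adjusted p of a subunit lay between 0.217 and 0.792 over them. The number of genes with an adjusted p under 0.05, 516 with edgeR, was 237 and 119 with the DESeq2 Wald test (local and parametric fit), 237 and 117 with its likelihood-ratio test, 304 with chromosome medians removed, and between 197 (without knockdown 1) and 452 (without scrambled 1) when single libraries were left out. With the replicate number as a block it was 504, of which 460 were shared with the unblocked fit; the subunits past the test stayed at 0 and their median was 0.037. Of the other named genes, the block ended the calls of *Pfdn1* (adjusted p = 0.0731) and *Des* (adjusted p = 0.0526) and changed no other call in the lists. With chromosome medians removed, 4 subunits changed sign (*Cct2* to -0.13, *Cct6a* to -0.067, *Cct7* to -0.11 and *Cct8* to -0.099), which follows from the medians taken off. The median of the subunits, 0.035, was -0.12 with chromosome medians removed and between -0.096 and 0.21 without single libraries. Leaving out single libraries moved *Cct3* between -0.20 and 0.11 and *Tcp1* between -0.42 and 0.20; the signs of the other 6 held there, but their sizes moved: *Cct2* lay between 0.0064 (without scrambled 2) and 0.22, *Cct6a* between 0.055 and 0.27, *Cct7* between 0.10 and 0.22, *Cct8* between 0.16 and 0.23, *Cct4* between -0.27 and -0.12 and *Cct5* between -0.38 and -0.17. The ratio of the highest to the lowest level per kilobase without *Tcp1* was 2.22 with all annotated exons as the length. A fit without 1 library assumes that the lone sample of its group varies like the others.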
